A study of Homo sapiens with 6 samples.

Results

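Ribosomal protein pseudogenes were described in the human ovarian cancer line OVCAR8 after treatment with pladienolide B. A gene was taken as a member when its symbol was that of a ribosomal protein gene followed by P and a number, and when its mean value over all 6 samples was 5 or more. The table of 38637 genes held 31 such symbols, of which 17 reached that mean. The parent of each was the gene whose symbol remains when the last P and its number are removed, such as RPLP0 for RPLP0P2. The members were chosen by their level over the 6 samples, so their levels are given as a description. The rule does not use the difference between the groups, but the treated samples count toward the mean. RPL21P44, with a mean of 3.30 in DMSO and 6.92 with pladienolide B, reached 5 through them. Earlier results of these data were also known when the members were chosen.

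Treatment of the wild-type cells lasted 72 h. DMSO, the vehicle, was given to 3 samples and pladienolide B to the other 3, and the series' design text gives its dose as 2 nM. The labels do not say whether the samples of a group were separate cultures. The limma p-values set each difference against the spread between these samples, which may be technical. That spread is drawn toward the spread of genes of like level. Polyadenylated RNA was sequenced, and the study used the comparison to ask how inhibition of SF3B1 changes gene expression. Pladienolide B binds the SF3b complex of the spliceosome, which recognises the branch point of introns.

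Ribosomal proteins are encoded by short genes that every growing cell transcribes at high levels. Their spliced mRNAs have often been copied back into DNA and inserted elsewhere in the genome, which left many processed pseudogenes that lack the parent's introns and often end in a run of A. Most such copies carry no promoter of their own and are silent or are transcribed as part of a neighbouring unit, and some keep an open reading frame. Because a young copy is almost identical to the parent mRNA, short reads from the abundant parent can be placed on it or left unplaced, depending on how the aligner treats reads with several matches.

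The values are deposited counts adjusted for library size, called adjusted counts here, and inverting the adjustment gave 22621338 to 26130882 reads on genes per sample. The epithelial genes PAX8 (4010 to 4580) and EPCAM (431 to 513) were high in all samples, as were MSLN, KRT7, KRT8 and KRT18. WT1 (13 to 33.8), MUC16 (10.1 to 22.8), CDH1 (21.6 to 41.6) and KRT19 (8.02 to 24.8) were low. The leukocyte genes PTPRC (up to 2) and CD3E (no reads) were at or near 0. Not all genes listed as markers of other cells were low: CD68 had 1090 to 1590 and COL1A1 5600 to 6900. PECAM1 (24.1 to 42.1), VWF (18.6 to 45.1), COL3A1 (0.912 to 14.4) and DCN (up to 2.07) were low. DMSO replicate 2 stood apart from the other DMSO samples: the chi-square per degree of freedom of its reads against theirs was 7.34 and 7.25, compared with 2.01 between the other two. Calls that change without that sample are given both ways.

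All 16 members with a symbol in RefSeq's GRCh38.p14 gene table had the same start and end there as in the deposited table. RPSAP58 was absent under that symbol. RefSeq lists it as an older name of RPSA2, a protein-coding gene, at the identical position on chromosome 19, and the deposited table types it as protein-coding as well. Thus 1 of the 17 members, RPSAP58, goes against the label of pseudogene. It is kept under the rule and its values are also left out of sums below.

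To show how far each copy can be told from its parent, the parent's canonical GENCODE transcript was aligned to each member's span in GRCh38. In 16 of 17 members the alignment covered the whole coding sequence of the parent. The exception was RPL32P3, where 68.6% of the coding bases aligned in 5 separate blocks with 79.6% identity. Its best block, of 209 bases, joined no exon junction of RPL32, and the other blocks were not examined for junctions. GENCODE types RPL32P3, like RPL23AP82, as a transcribed unprocessed pseudogene. In 13 members every exon junction of the parent was joined without an intron. A junction was counted only where the best aligned block ran well past it on both sides. In RPLP0P2 this held for 6 of the 7 junctions of RPLP0, within 1 block that covered 98.9% of the transcript. After its copy, 25 of the 30 bases were A. The 30 bases that follow the copy in RPL21P28 were all A, and 29 of 30 were in RPL13AP5.

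The following stretches of 90 bases of coding sequence, from GRCh38, are centred on an exon junction of the parent. They are shown because they carry both the loss of the intron and the bases by which a read within the copy could be assigned. In the members printed here the copy is 0.9% to 4.5% of the annotated span. How many of their counted reads lie in the copy is not known. In each parent the 2 capitals are the bases on either side of the junction. In each copy capitals are bases that differ from the parent.

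RPLP0 is on the minus strand, in 2 blocks at chr12:120200730-120200774 and chr12:120199441-120199485, the end of exon 2 and the start of exon 3. RPLP0P2 is at chr11:61636689-61636778 on the plus strand and differs at 6 of the 90 bases.
RPLP0: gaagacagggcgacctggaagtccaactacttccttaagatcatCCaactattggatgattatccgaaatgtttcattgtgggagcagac
RPLP0P2: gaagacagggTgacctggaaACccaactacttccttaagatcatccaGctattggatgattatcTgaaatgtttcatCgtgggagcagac

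RPL23A is on the plus strand at chr17:28720846-28720890 and chr17:28722723-28722767. RPL23AP7 at chr2:113611995-113612084 on the minus strand has 7 differing bases and RPL23AP82 at chr22:50798818-50798907 on the plus strand has 6.
RPL23A: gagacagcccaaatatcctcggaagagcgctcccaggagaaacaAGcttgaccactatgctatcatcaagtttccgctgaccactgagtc
RPL23AP7: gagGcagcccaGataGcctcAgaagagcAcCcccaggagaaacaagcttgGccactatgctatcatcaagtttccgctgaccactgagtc
RPL23AP82: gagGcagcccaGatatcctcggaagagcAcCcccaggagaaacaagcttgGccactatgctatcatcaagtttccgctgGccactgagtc

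RPSA is on the plus strand at chr3:39408680-39408724 and chr3:39410754-39410798. In this stretch RPSAP58, at chr19:23827369-23827458 on the plus strand, did not differ from RPSA at any base, whereas RPSAP52, at chr12:65758704-65758793 on the minus strand, differed at 4.
RPSA: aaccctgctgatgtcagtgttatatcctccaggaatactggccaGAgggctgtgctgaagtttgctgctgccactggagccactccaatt
RPSAP58: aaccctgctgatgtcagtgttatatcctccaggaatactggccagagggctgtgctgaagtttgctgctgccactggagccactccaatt
RPSAP52: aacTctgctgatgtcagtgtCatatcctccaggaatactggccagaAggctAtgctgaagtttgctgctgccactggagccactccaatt

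Identity to the parent transcript ranged from 78.2% in RPL13P5 to 99.4% in RPSAP58 and RPL13AP5. Every stretch of 50 bases of a copy was looked up, without a mismatch and on both strands, in the GENCODE transcripts of all genes that do not overlap the copy. RPLP0P2 shared 0.4% of these windows with another transcript, although its identity to RPLP0 was 93.9%. RPSAP58 shared 87.0%, RPL13AP5 80.1%, RPL21P28 77.8% and RPSAP9 59.8%. For these 4 members a read within the copy often has a perfect match in the parent: the parent transcript alone held 73.8%, 74.5%, 68.0% and 30.4% of their windows. RPL23AP7 (74.2%) and RPL23AP82 (79.4%) also shared most windows with other transcripts, of which RPL23A itself held 0.6% for either. The values of these 6 members are uncertain, since such reads could be placed on another gene or left out.

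**Figure D1:**
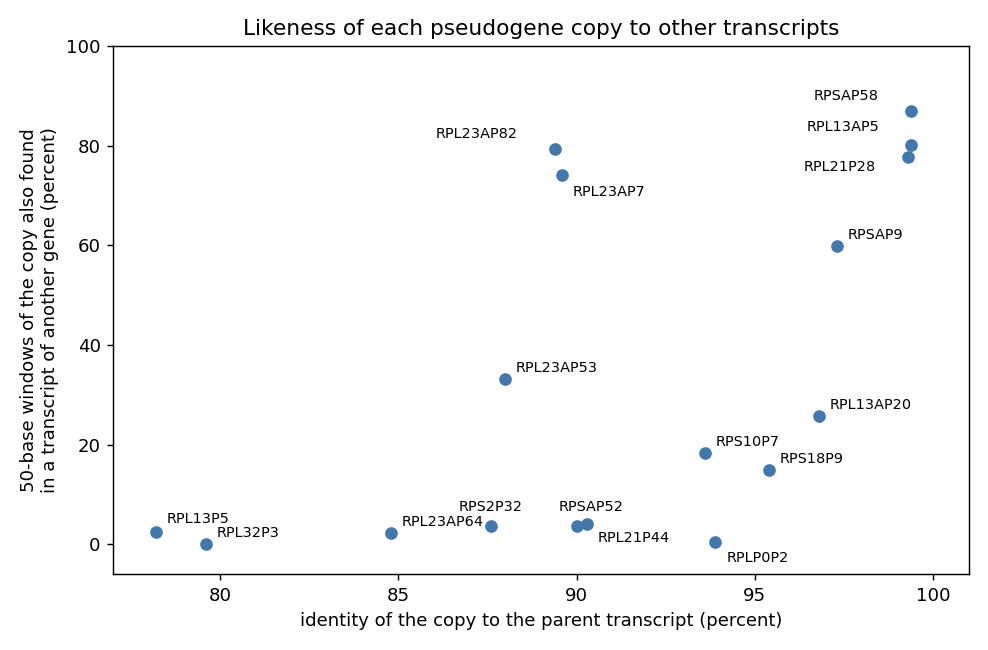
Identity of each pseudogene copy to its parent transcript (x axis, percent) against the share of its 50-base windows that also occur in a transcript of another gene (y axis, percent), 1 point per member. RPLP0P2 lies at the bottom with 0.4% shared windows, and RPSAP58, RPL13AP5 and RPL21P28 lie at the top right with 77.8% to 87.0%.

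The longest open reading frame of the copy was at least as long as the parent protein in 5 members. These were RPSAP58 with 295 codons (RPSA has 295), RPL13AP5 and RPL13AP20 with 203 each (RPL13A has 203), RPL21P28 with 160 (RPL21 has 160) and RPLP0P2 with 318 (RPLP0 has 317). In the other 12 the frame was shorter, down to 21 codons in RPL23AP64 against 156 in RPL23A. Frames were searched in the best aligned block alone. For RPL32P3 that block is 209 bases, too short for the 135 codons of RPL32, so its class was fixed beforehand. No protein was measured.

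The members also differed in what surrounds the copy. In 7 members the annotated gene was longer than 10000 bases and the copy was between 0.9% (RPSAP58) and 4.5% (RPLP0P2) of its span, so that reads counted for the gene may lie in other exons. In the other 10, the gene was shorter than 2000 bases and the copy took between 29.8% (RPL21P44) and 100% (RPL13AP5 and RPL13AP20) of it. The spans of RPL23AP7 and RPL23AP82 aligned to each other over 15901 bases with 98.7% identity, and that of RPL23AP53 to RPL23AP7 over 2927 bases with 93.8%. These 3 members were thus alike over more than the copy of RPL23A. RPL23AP7 and RPL23AP82 are not separate in sequence. For RPL23AP53 the best aligned block was only a part of its span of 23975 bases, and further blocks were not counted.

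The members were low compared with their parents. By adjusted counts, not corrected for length, RPSAP58 had the highest mean over the 6 samples (565) and RPL21P44 the lowest (5.11). RPSAP58, RPL23AP7, RPL23AP82 and RPL23AP53 together held 69.5% to 73.9% of the members' sum in each sample. The sum of all 17 members was 1952, 2080 and 1894 in the DMSO samples and 1963, 2048 and 1848 in the pladienolide B samples, and these ranges overlap. As a share of all values it was 0.00796% ± 0.000277 in DMSO and 0.00807% ± 0.000404 with pladienolide B (SD, n = 3 each). Without RPSAP58 it was 0.00582% ± 0.000212 and 0.0056% ± 0.000331. The 10 parents held 1.25% ± 0.054 of all values in DMSO and 1.11% ± 0.0216 with pladienolide B.

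**Figure D2:**
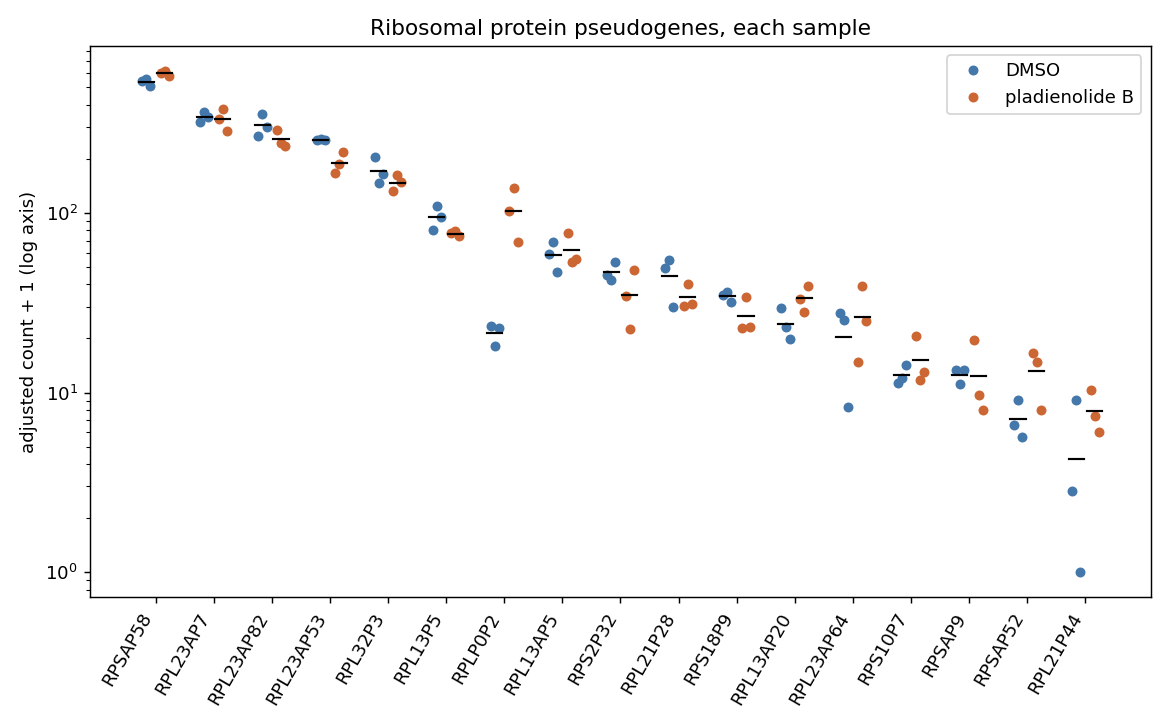
Adjusted count plus 1 (log axis) of the 17 ribosomal protein pseudogenes in each of the 3 DMSO and 3 pladienolide B samples, ordered by mean level, with black lines at the group means. RPLP0P2 is the member whose groups lie farthest apart, with DMSO samples at 17.1 to 22.6 and pladienolide B samples at 68.2 to 136 before 1 is added.

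Of the 17 members, 15 passed the filter on low values and were tested, and RPSAP52 and RPL21P44 did not pass it. With limma on log2(adjusted count + 1), 2 of the 15 had an adjusted p below 0.05, RPLP0P2 higher and RPL23AP53 lower with pladienolide B. Over all 16178 genes tested 47.6% passed, 22.4% higher and 25.2% lower. The share called depends on the level: it was 23.7% of genes with a mean of 10 to 100, where 10 of the tested members lie and 1 was called, and 49.9% of genes with a mean of 100 to 1000, where 5 lie and 1 was called. The groups did not overlap in 4 of the 15 members, RPLP0P2 and RPSAP58 higher and RPL23AP53 and RPL13P5 lower, compared with 55.3% of all tested genes. This share also depends on the level. Of 3936 tested genes with a mean of 10 to 100, 700 were higher without overlap and 665 lower. Of the 10 tested members at that level it was 1 and 1. Of 6487 genes with a mean of 100 to 1000, 1674 were higher without overlap and 2031 lower. Of the 5 members there it was again 1 and 1. The median log2 change of the tested members was -0.12, beside 0.00 over all tested genes.

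By comparison, 46 of 79 cytosolic ribosomal protein genes (58.2%) passed the test, all of them lower, beside 47.6% of all tested genes. Their means were 4144 or more, and the share called among all genes at that level was not computed. Over all 79 the median log2 change was -0.13 and the range -0.39 to 0.08. Of the 10 parents, 8 passed and were lower, and RPL13 (0.04) and RPL23A (-0.11) did not pass. Without the variance trend 23 of the 79 passed, without pladienolide B replicate 2 it was 36, and without DMSO replicate 2 it was 48, of which 4 were higher. Among pseudogenes of other genes whose parent is in the table, 47 of 173 tested (27.2%) passed, 18 higher and 29 lower.

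**Figure D3:**
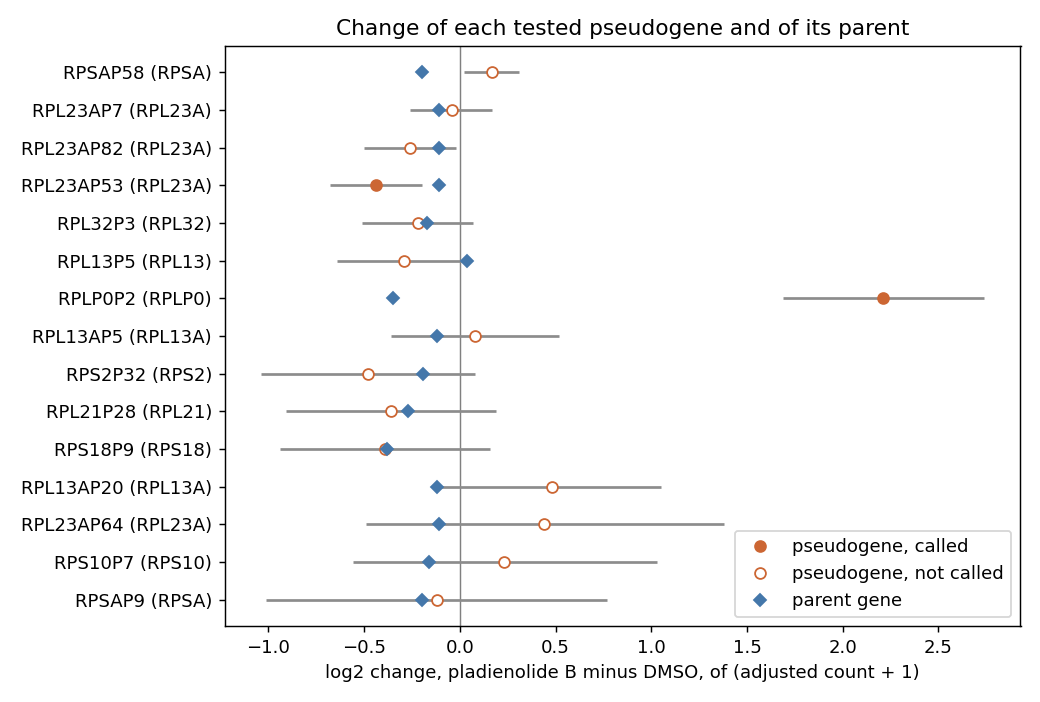
Log2 change of adjusted count plus 1, pladienolide B minus DMSO, for the 15 tested pseudogenes (circles, filled where the limma adjusted p is below 0.05, with 95% intervals) and for the parent named in brackets (diamonds). RPLP0P2 lies at 2.21 with its parent at -0.35, and most other intervals span 0.

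RPLP0P2 is a copy of RPLP0, which encodes the P0 protein at the base of the stalk of the large ribosomal subunit. Its annotated gene runs from 61615036 to 61639449 on chromosome 11, plus strand, and the copy begins 21578 bases into it. The adjusted counts were 22.6, 17.1 and 21.8 in DMSO and 102, 136 and 68.2 with pladienolide B. Every pladienolide B sample was far above every DMSO sample, and the pladienolide B samples were also the more spread. The mean with pladienolide B was 498% of that in DMSO, and the log2 change was 2.21 (SE 0.25, 95% interval 1.69 to 2.74, limma adjusted p = 1.7e-06). In bulk RNA, more cells with the transcript and more transcript per cell cannot be told apart. RPLP0P2 was the only tested member that changed at least 2-fold. A change of at least 2-fold together with a limma adjusted p below 0.05 was found in 7 of the 173 tested pseudogenes of other genes. It was found in 3.93% of all tested genes and in 9.96% of those with a mean of 10 to 100. Genes that changed as much without passing the test are not in these counts.

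RPLP0 fell over the same samples. Its adjusted counts were 43700, 47570 and 44490 in DMSO and 35990, 35280 and 35250 with pladienolide B, a log2 change of -0.35 (SE 0.04, limma adjusted p = 4.3e-06). RPLP0P2 as a percent of RPLP0 was 0.0518, 0.036 and 0.0489 in DMSO and 0.284, 0.385 and 0.193 with pladienolide B. The value of the RPLP0P2 gene was thus higher where that of RPLP0 was lower, and in each sample it was below 0.4% of it. Since the copy is 4.5% of the span, how many of the reads lie in the copy is not known.

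No other gene of the table overlapped the RPLP0P2 span. The nearest genes with a mean of 10 or more were SYT7, a synaptotagmin gene 26631 bases away on the opposite strand, and DAGLA, a diacylglycerol lipase gene 40734 bases away on the same strand. SYT7 went from 379 ± 12.3 to 437 ± 27.6 (SD, n = 3 each), a log2 change of 0.20 (limma adjusted p = 0.044). DAGLA went from 368 ± 24.3 to 508 ± 20, a log2 change of 0.46 (limma adjusted p = 1.4e-04). Both rose, with smaller log2 changes than that of RPLP0P2. LRRC10B, on the same strand beyond SYT7 at 104017 bases, had a log2 change of 0.23 (limma adjusted p = 0.15). MYRF, on the same strand beyond DAGLA at 113167 bases, fell, with a log2 change of -0.46 (limma adjusted p = 4.8e-06).

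The members with RPL23A as parent were the largest set. RPL23A encodes a large-subunit protein near the exit of the peptide tunnel, and its own adjusted counts were 9866, 11550 and 9851 in DMSO and 9632, 9693 and 9641 with pladienolide B (log2 change -0.11, SE 0.05, limma adjusted p = 0.11).

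RPL23AP53 had adjusted counts of 255, 257 and 252 in DMSO and 165, 185 and 216 with pladienolide B. The DMSO samples were within 5 counts of each other and every treated sample was lower. The log2 change was -0.44 (SE 0.11, 95% interval -0.68 to -0.20, limma adjusted p = 0.0039). Its span overlaps 182 bases of ZNF596, a zinc finger gene on the opposite strand, with 43.0 ± 8.06 in DMSO and 28.1 ± 8.55 with pladienolide B (limma adjusted p = 0.065). LOC101927506, the nearest other gene with a mean of 10 or more, 95241 bases away on the same strand, had a change of 0.22 (limma adjusted p = 0.68). FBXO25, an F-box gene 174494 bases away on the opposite strand, fell by 0.90 on the log2 scale (SE 0.08, limma adjusted p = 2.1e-07), and ERICH1, 382423 bases away on the same strand, had a change of 0.02 (limma adjusted p = 0.84).

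RPL23AP82 had adjusted counts of 267, 354 and 301 in DMSO and 287, 245 and 234 with pladienolide B, so the groups overlapped. Its log2 change was -0.26 (SE 0.11, 95% interval -0.50 to -0.02) and missed the threshold with a limma adjusted p of 0.066. It passed when DMSO replicate 1 or pladienolide B replicate 1 was left out. Its span overlaps that of RABL2B, a small GTPase gene on the opposite strand, over 16206 bases, and RABL2B had a change of -0.12 (limma adjusted p = 0.35). RPL23AP7, its near duplicate on chromosome 2, had 318, 363 and 340 in DMSO and 333, 378 and 285 with pladienolide B. There the groups overlapped and the interval of the log2 change, -0.26 to 0.17, spans 0.

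RPL23AP64 lies inside CENATAC, a gene on the opposite strand whose protein belongs to the minor spliceosome. Its adjusted counts were 26.6, 24.2 and 7.29 in DMSO and 13.8, 38 and 24.1 with pladienolide B. The samples of each group were far apart, and the interval of -0.49 to 1.38 leaves the direction unknown. CENATAC rose by 0.32 on the log2 scale (SE 0.10, limma adjusted p = 0.014).

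Among the other large-subunit copies none passed the test. RPL13P5 had adjusted counts of 79.7, 108 and 93.6 in DMSO and 76.1, 77.9 and 73.2 with pladienolide B. All 3 treated samples were lower than all DMSO samples, but by little, and the log2 change of -0.29 (SE 0.16, 95% interval -0.64 to 0.05) had a limma adjusted p of 0.15. It lies wholly within LOC105369632 on the opposite strand, which had a change of -0.50 (SE 0.25, limma adjusted p = 0.11), whereas its parent RPL13 had a change of 0.04.

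RPL32P3 had 203, 146 and 164 in DMSO and 131, 161 and 147 with pladienolide B (log2 change -0.22, 95% interval -0.51 to 0.07). It is the member that aligned least completely to its parent, and the groups overlapped. A small nucleolar RNA gene, SNORA7B, lies in its span on the same strand and had a mean of 0.632 in DMSO and 1.75 with pladienolide B.

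Both copies of RPL13A, a protein of the large subunit that is also known for control of translation, keep the full reading frame. RPL13AP5 had 58.4, 67.5 and 46.1 in DMSO and 75.8, 52.5 and 54.1 with pladienolide B (log2 change 0.08, 95% interval -0.36 to 0.52). RPL13AP20 had 28.4, 22.2 and 18.8 in DMSO and 32.3, 26.9 and 38.1 with pladienolide B (log2 change 0.48, 95% interval -0.10 to 1.05, limma adjusted p = 0.16). In both the groups overlapped, whereas RPL13A was lower with pladienolide B (log2 change -0.12, limma adjusted p = 0.029).

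RPL21P28, within DTL on the opposite strand, had 48.1, 53.4 and 29 in DMSO and 29.3, 39.3 and 30.1 with pladienolide B (log2 change -0.36, 95% interval -0.91 to 0.19). DTL, a substrate receptor for a ubiquitin ligase, had a change of 0.05 and RPL21 a change of -0.27. RPL21P44 was the member just inside the threshold, with 1.84, 8.04 and 0 in DMSO and 9.33, 6.43 and 5.01 with pladienolide B. It reached a mean of 5 through the pladienolide B samples, since its DMSO mean was 3.30, and was not tested.

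The copies of RPSA, a protein of the small subunit that is also the laminin receptor, spanned the range of levels. RPSAP58 had 538, 554 and 505 in DMSO and 599, 615 and 578 with pladienolide B. The groups did not overlap, and the log2 change of 0.17 (SE 0.07, 95% interval 0.02 to 0.31) had a limma adjusted p of 0.058. Without DMSO replicate 2 the change was 0.20 with an adjusted p of 0.031. RPSA itself had 41590, 47510 and 43130 in DMSO and 38970, 37310 and 38490 with pladienolide B, a log2 change of -0.20 (SE 0.05, limma adjusted p = 0.0024). ZNF681, a zinc finger gene that shares 396 bases with the RPSAP58 span on the opposite strand, fell by 0.58 on the log2 scale (limma adjusted p = 0.0069).

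RPSAP9 had 12.3, 10.1 and 12.3 in DMSO and 18.6, 8.63 and 7.02 with pladienolide B, and the interval of the log2 change was -1.01 to 0.77. RPSAP52 had 5.63, 8.06 and 4.68 in DMSO and 15.6, 13.8 and 7.02 with pladienolide B and was not tested. One treated sample of RPSAP52 lay inside the DMSO range. Its span runs opposite to HMGA2, a chromatin protein gene, and overlaps it over 2515 bases. HMGA2 rose from 2990 ± 211 to 5510 ± 332 (SD, n = 3 each), a log2 change of 0.88 (SE 0.05, limma adjusted p = 1.4e-09). The part of reads from HMGA2 in the RPSAP52 values, like that of the other overlapping genes in their members' values, was not tested, and whether reads were assigned by strand is not given in the sources used here.

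The remaining members were copies of small-subunit genes. RPS2P32 had 44.2, 41.3 and 52.1 in DMSO and 33.4, 21.7 and 47.1 with pladienolide B (log2 change -0.48, 95% interval -1.04 to 0.08). Its groups overlapped through pladienolide B replicate 3, and without that sample RPS2P32 passed the test. RPS18P9 had 33.9, 35.3 and 31.1 in DMSO and 22, 32.9 and 22.1 with pladienolide B (log2 change -0.39, 95% interval -0.94 to 0.16), nearly the change of RPS18, -0.38. RPS10P7, inside LOC107985246 on the same strand, had 10.3, 11.1 and 13.3 in DMSO and 19.7, 10.8 and 12 with pladienolide B (log2 change 0.23, 95% interval -0.56 to 1.03). LOC107985246 had a change of 0.16, and reads of both cannot be told apart where they share exons.

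To set each member against its parent directly, the difference of their log2 values was taken in each sample and fitted with limma over all pseudogene and parent pairs of the table. RPLP0P2 was the 1 of 15 members that passed, with a difference of 2.56 (SE 0.30, 95% interval 1.85 to 3.27, adjusted p = 0.0023), and 12.5% of all 176 pairs passed. Among the pairs of other families, 21 of 161 passed, 11 of them higher and 10 lower. RPSAP58 went from 1.21% ± 0.0712 of RPSA to 1.56% ± 0.0756 (SD, n = 3 each), with groups that did not overlap, and its difference of 0.37 (95% interval 0.01 to 0.73) had a limma adjusted p of 0.15. RPL13AP20 over RPL13A also had groups that did not overlap, with a difference of 0.60 (95% interval 0.03 to 1.17, limma adjusted p = 0.15).

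RPL23AP53, which fell by itself, was 2.46% ± 0.201 of RPL23A in DMSO and 1.95% ± 0.269 with pladienolide B (SD, n = 3 each). The lowest DMSO sample, at 2.23%, was below the highest treated one, at 2.25%, and the difference of -0.33 (95% interval -0.72 to 0.06) had a limma adjusted p of 0.20. RPL13P5 was 0.301% ± 0.0388 of RPL13 in DMSO and 0.237% ± 0.013 with pladienolide B with groups that did not overlap (difference -0.34, 95% interval -0.80 to 0.13, limma adjusted p = 0.27). RPLP0P2, RPSAP58, RPL13AP20 and RPL13P5 were thus the 4 of 15 members whose groups did not overlap in this ratio, compared with 39.2% of all 176 pairs.

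**Figure D4:**
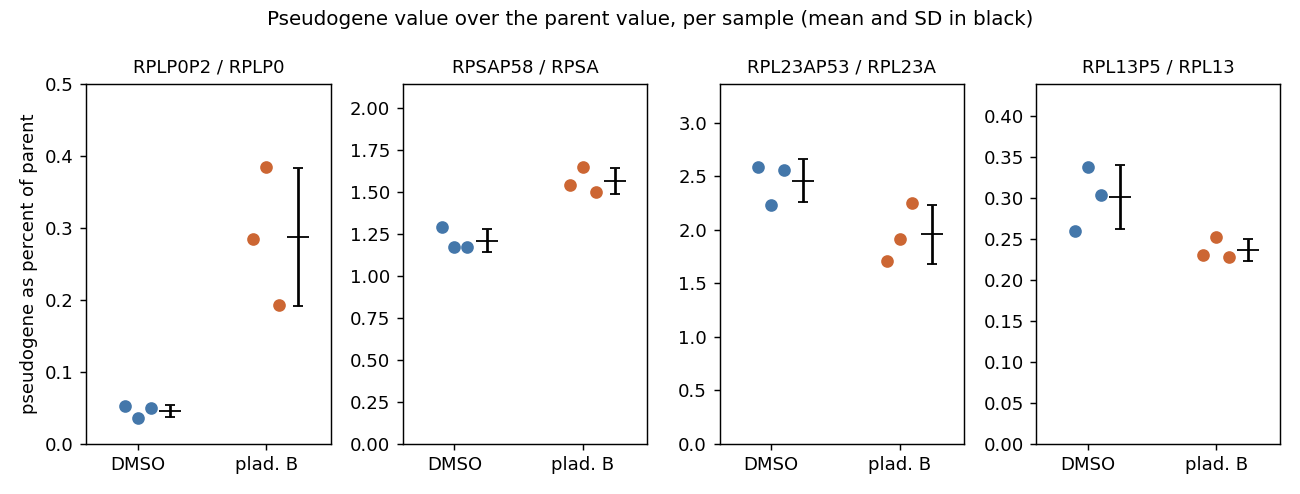
Value of 4 pseudogenes as a percent of the parent's value in the same sample, each panel with its own y axis from 0, points for the 3 samples of each group and the mean with SD in black. RPLP0P2 went from 0.0456% to 0.287% of RPLP0, while the other 3 panels show smaller differences that missed the threshold.

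The changes of the 15 tested members and of their parents had a Pearson correlation of -0.33 and a Spearman correlation of 0, and without RPLP0P2 these were 0.21 and 0.18. Over all 17 members, 1 of which reached the mean of 5 through the pladienolide B samples, they were -0.40 and -0.20. Several members share a parent, and all changes share the same 6 libraries, so this is a description. Over the 15 tested members, identity to the parent and the change had a Pearson correlation of 0.20 and a Spearman correlation of 0.28. The share of windows found in other transcripts had -0.25 and -0.06 with the change and 0.53 and 0.28 with the mean level.

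Over the 15 tested members the median log2 change was 0.17 in the 5 with a full reading frame (-0.36 to 2.21) and -0.24 in the 10 others (-0.48 to 0.44). Those others include RPL32P3, whose aligned block was too short for a full frame. The median change was -0.24 in the 8 that overlap another gene and -0.04 in the 7 that do not. By length it was -0.13 in the 6 long members and -0.12 in the 9 short ones. The ranges of the classes overlapped in each case. The class of length moves with the level: all short members had means below 100, and 5 of the 6 long members that were tested had means above 100. Called were 0 of the 9 short members tested, beside 23.7% of genes with a mean of 10 to 100, and 2 of the 6 long ones, beside 49.9% of genes with a mean of 100 to 1000, where RPL23AP53 lies, and 23.7% at the level of RPLP0P2.

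The threshold of 5 fell between RPL21P44 (5.11) and RPSAP52 (9.13) on the inside and RPS14P3 (3.98) and RPL23AP87 (3.27) on the outside. RPS14P3 had 5.69, 4.03 and 2.80 in DMSO and 1.09, 5.29 and 5.01 with pladienolide B. RPL23AP87 had 3.75, 3.03 and 5.71 in DMSO and 3.12, 0.0386 and 4.01 with pladienolide B. No direction can be read from either at this depth. Of the 14 symbols outside, 5 had no read in any sample.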

How the data were processed

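Polyadenylated RNA of OVCAR8 cells was sequenced after DMSO or pladienolide B, 3 samples each. The study's methods state alignment to hg38 with hisat2, while the submitters' processing notes name hg19, HISAT2, HTSeq 0.12.4 and DESeq2; 99.8% of 35926 symbols lay at their GRCh38.p14 position. The values the authors deposited are a signal, counts adjusted for library size as edgeR does (common dispersion 0.0027). Inverting the adjustment gave whole reads, to within 0.02, for 100% of 96432 values of 10 or more, and the largest difference after adjusting them again was 4.9e-05. The deposited fold changes, p-values and q-values were not used. Strand setting and treatment of reads with several matches are not given in the sources used here.

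Members and gene lists were chosen with earlier results of these data known. Genes kept by edgeR 4.0.16 filterByExpr (10 in 3 samples, 15 in total) were tested with limma 3.58.1 on log2(value + 1), with a variance trend, two-sided, Benjamini-Hochberg over all genes, since the values are not counts; the pseudocount of 1 shrinks the changes of low genes. Ratios were fitted over all symbol-matched pairs. The inversion of the adjustment was tried on simulated reads. The members named in full are all 17, which includes those asked for by the rule on the highest, the called, RPLP0P2, the RPSA copies and those next to the threshold, with their parents; overlapping and neighbouring genes were added after their values were seen. Copies were aligned with BLAST+ 2.17.0 to GRCh38 with GENCODE 44 transcripts. Alternatives were pseudocounts of 0.1 and 5, other filters, no trend, a replicate block, each sample left out, and edgeR and DESeq2 1.42.0 on the recovered reads.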

Additional observations from a re-analysis of the deposited data

How the results depend on the processing

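RPLP0P2 and RPL23AP53 passed under every alternative run, with log2 changes of 1.98 to 2.47 and -0.54 to -0.35. Their limma adjusted p depended more on the setting. Without the variance trend it was 0.003 for RPLP0P2 and 0.021 for RPL23AP53, beside 1.7e-06 and 0.0039 in the main fit. Without pladienolide B replicate 1 it was 0.027 for RPL23AP53. Leaving out 1 sample gave 2 to 3 called members, RPL23AP82 joining without DMSO replicate 1 or pladienolide B replicate 1, RPSAP58 without DMSO replicate 2 and RPS2P32 without pladienolide B replicate 3. edgeR with RLE factors also called RPSAP58 (adjusted p = 0.045). Of 223 alternative values of single members, 218 kept their side of the threshold and 5 newly passed. The ribosomal protein genes called fell from 46 to 23 without the variance trend, the cause was not tested, and were 36 to 48 with 1 sample left out. The ratio to the parent, which was not fitted with edgeR or DESeq2, was called for RPLP0P2 alone of the members under each alternative it was fitted with, although calls over all pairs went from 22 to 8 with no filter on low values and to 12 without pladienolide B replicate 3. With the replicate number as a block, 2 members, 39 ribosomal protein genes and 1 ratio were called, and 10 over all pairs. The deviations of same-numbered samples from their group means had correlations of -0.02, -0.02 and 0. Those of samples with different numbers had -0.04 to 0.05. Values this near 0 show no pairing by number, but cannot tell whether same-numbered samples were handled together. Over all 17 members, the median change of those that overlap a gene minus that of the others went from -0.24 to 0.05 when overlap on the same strand alone counted, which leaves 2 members. The widest intervals among the tested members were those of the 3 with the fewest counts, RPL23AP64, RPS10P7 and RPSAP9, between -1.01 and 1.38.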
